A study of Mus musculus with 18 samples.

Results

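The 10 genes described here encode the Fc gamma receptors Fcgr1, Fcgr2b, Fcgr3 and Fcgr4, the signalling adaptors Fcer1g and Tyrobp, the lipid receptor Trem2, and 3 enzymes that act below them, Syk, Plcg2 and Inpp5d. They were chosen by name, as the machinery through which microglia sense antibody complexes and the lipids and lipoproteins around amyloid plaques, and they are 10 of the 55487 genes in the table of read counts from mouse frontal cortex. Of the 10, 9 passed the filter on low counts and were among the 17414 genes tested, while Fcgr4, with 0 to 14 reads per mouse, did not. In APP/PS1 mice, 6 of the 9 tested genes were higher than in WT mice, namely the receptors Trem2, Fcgr1, Fcgr2b and Fcgr3 and the adaptors Tyrobp and Fcer1g, with fold changes from 2.06 to 5.17. The 3 enzymes did not pass the main test (edgeR), although Plcg2 and Inpp5d passed in DESeq2 and in edgeR without the filter on low counts. In APP/PS1/FTnKO mice all 9 genes had a lower mean than in APP/PS1 mice, and none of the 9 differences passed the test.

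The study asked how removal of farnesyltransferase from forebrain neurons affects the cortical transcriptome of a mouse model of amyloid deposition. APP/PS1 mice carry transgenes that include the Swedish form of APP, driven by the prion protein promoter, and develop amyloid plaques. All groups were described as littermates homozygous for floxed alleles of Fntb, the beta subunit of farnesyltransferase, and the APP/PS1/FTnKO mice carried in addition a Cre recombinase under the CamKII-alpha promoter, which is active in forebrain excitatory neurons, so that the deletion was directed at neurons and not at microglia. WT mice had neither the transgenes nor Cre, although the deposited record names their strain as C57BL/6J, so their background is not settled. Each genotype had 6 mice, 3 females and 3 males, aged 9 to 10 months, and each mouse gave 1 stranded mRNA library with a total count between 15925432 and 21030935 reads. WT mouse 19622, a female, was treated apart: its cerebellar markers summed to 2212 CPM (counts scaled to a common library size) against 127 to 179 in the other 17 mice, its excitatory neuron markers to 428 against 3077 to 6079, and its homeostatic microglial markers to 116 against 195 to 383. Unless stated otherwise, values refer to the other 17 mice (WT 5, each of the transgenic genotypes 6).

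The labels were checked against the genes that the alleles touch. App had a mean of 1534 ± 51.2 normalized CPM in WT (SD, n = 5), 2897 ± 283 in APP/PS1 (n = 6) and 2972 ± 517 in APP/PS1/FTnKO mice (n = 6), and Prnp, whose promoter drives the transgenes, had 702.0 ± 41.0, 2118 ± 124 and 2192 ± 317. Fntb ranged from 14.1 to 32.2 normalized CPM in WT, from 14.2 to 32.1 in APP/PS1 and in the APP/PS1/FTnKO group from 7.84 to 14.7, and the groups overlapped. Its log2 fold change against APP/PS1 was -0.77 ± 0.26 (SE), with an adjusted p of 0.2507 in edgeR's quasi-likelihood test, and Churc1, which overlaps Fntb, had -0.07.

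Fc gamma receptors bind the constant part of immunoglobulin G. Fcgr1 (high affinity), Fcgr3 and Fcgr4 (low to intermediate affinity) have no signalling motif of their own in mice and signal through the common gamma chain encoded by Fcer1g, whereas Fcgr2b carries an inhibitory motif in its own tail. Trem2 binds lipids, lipoproteins and amyloid and pairs with the adaptor Tyrobp (DAP12). In both adaptors the activating motif (ITAM) holds a pair of tyrosines that, once phosphorylated by Src family kinases, recruit the kinase Syk, which in turn activates the phospholipase Plcg2. Inpp5d (SHIP1) is a lipid phosphatase that removes the phosphoinositides on which this signalling depends and is recruited to the inhibitory motif of Fcgr2b. In the brain these genes are expressed mainly by microglia and border macrophages, and several of them belong to the set that rises in microglia at plaques.

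The coding sequences of these motifs are shown because they are the parts of the adaptors and of the inhibitory receptor through which the signal is known to pass. They were read from the GRCm38 (mm10) genome at the GENCODE vM21 principal transcript, 5′ to 3′ on the coding strand, with the codons of the motif tyrosines in capitals.
Tyrobp ITAM: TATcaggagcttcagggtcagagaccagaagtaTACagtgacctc
Fcer1g ITAM: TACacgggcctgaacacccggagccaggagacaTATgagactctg
Fcgr2b ITIM: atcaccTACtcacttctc
The Tyrobp motif covers residues 92 to 106 of 114 and lies in 2 exons between positions 30415670 and 30417382 of chromosome 7, on the plus strand. In Fcer1g the motif covers residues 65 to 79 of 86, again in 2 exons, between positions 171229889 and 171230072 of chromosome 1 on the minus strand. The inhibitory motif of Fcgr2b covers residues 317 to 322 of 340, within 1 exon at chr1:170961071-170961088, minus strand. No match to the activating pattern (tyrosine, any 2 residues, leucine or isoleucine, 6 to 8 residues, and the same 4-residue unit again) was found in the other 8 members, Fcgr1, Fcgr2b, Fcgr3, Fcgr4, Trem2, Syk, Plcg2 and Inpp5d. The pattern was present in 2.88% of 21614 coding genes, whereas the inhibitory pattern (isoleucine, valine, leucine or serine, any residue, tyrosine, any 2 residues, and leucine, isoleucine or valine) is short, was present in 49.0% of them and was not searched in the other members.

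The genes lie on chromosomes 1, 3, 7, 8, 13 and 17 (GRCm38). Fcgr2b (chr1:170958617-170976547, minus strand), Fcgr4 (chr1:171018920-171029761, plus), Fcgr3 (chr1:171051174-171064935, minus) and Fcer1g (chr1:171229572-171234365, minus) are neighbours in 1 cluster, and the 3 receptors are related in sequence, so that reads shared between them may have been split or dropped during counting, whose multi-mapping setting was not given in the sources used here. Fcgr1 is at chr3:96282909-96293969 (minus), Trem2 at chr17:48346401-48354147 (plus), Tyrobp at chr7:30413760-30417585 (plus), Syk at chr13:52583173-52648792 (plus), Plcg2 at chr8:117498291-117635142 (plus) and Inpp5d at chr1:87620312-87720507 (plus). Only Fcgr2b had exons that overlap those of another annotated gene, Gm38204 on the opposite strand, over 155 bases or 2.68% of its exonic length.

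The question of the first comparison, APP/PS1 against WT, is how the amyloid model differs from WT when all neurons keep farnesyltransferase. Trem2 had 10.0, 11.5, 12.9, 13.1 and 13.9 normalized CPM in the 5 WT mice. In APP/PS1 mice its level ranged from 30.3 to 87.4 with a median of 73.9. All 6 APP/PS1 mice lay above all WT mice, and the lowest, male 19744, still had more than the highest WT mouse. The fold change was 5.17 (95% interval 3.53 to 7.56), a log2 fold change of 2.37 ± 0.26 (SE) with an adjusted p of 9.589e-05 in edgeR's quasi-likelihood test.

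Tyrobp, the adaptor with which Trem2 pairs, had 10.9, 11.4, 11.5, 11.6 and 14.3 normalized CPM in WT mice. Its APP/PS1 levels ranged from 29.7 to 84.1 with a median of 63.4. The groups did not overlap, and the highest WT value, that of male 19101, stood clear of the other 4. The fold change was 4.84 (95% interval 3.35 to 7.004), a log2 fold change of 2.28 ± 0.25 with an adjusted p of 9.902e-05 (edgeR). Fcer1g, the adaptor of the activating Fc receptors, had 4.86, 5.50, 5.67, 7.01 and 7.10 normalized CPM in WT mice and ranged from 9.58 to 24.1 (median 16.9) in APP/PS1 mice. It was 2.83 times as high in APP/PS1 (95% interval 2.07 to 3.87, log2 1.501 ± 0.21, adjusted p 0.0007809 in edgeR), again without overlap between the groups.

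The 3 Fc gamma receptors that could be tested were all higher in APP/PS1 mice. Fcgr3 had 8.78, 10.2, 10.3, 10.8 and 11.2 normalized CPM in WT mice and 16.9 to 38.1 (median 25.5) in APP/PS1 mice, and its log2 fold change was 1.34 ± 0.19 (adjusted p 0.0008509, edgeR). The inhibitory receptor Fcgr2b had 3.26, 3.798, 3.89, 4.63 and 4.91 in WT and 5.94 to 21.3 (median 10.8) in APP/PS1 mice. Its log2 fold change was 1.52 ± 0.28 (adjusted p 0.005873, edgeR), with a 95% interval of the fold from 1.92 to 4.29, and male 16975 lay far above the other 5 mice. High-affinity Fcgr1 had 2.84, 2.85, 2.94, 3.11 and 3.31 in WT and 4.17 to 8.13 (median 6.42) in APP/PS1 mice, the narrowest WT range of the members in relative terms (coefficient of variation 6.64%). It differed by 1.04 ± 0.17 on the log2 scale (adjusted p 0.001797, edgeR), and none of the 3 receptors overlapped between the groups.

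The lowest of the members was Fcgr4, the receptor for IgG2 subclasses, with raw counts of 0, 0, 1, 1 and 3 reads in WT mice, 2, 3, 3, 12, 12 and 14 reads in APP/PS1 mice and 1, 3, 3, 3, 4 and 5 reads in APP/PS1/FTnKO mice. In the 2 WT mice without a read, a count of 0 allows up to 0.15 or 0.155 normalized CPM (3 counts). The APP/PS1 mice fell into 3 with 2 or 3 reads, which overlapped the WT mice, and 3 with at least 12 reads, and mouse 19622 had 5 reads, more than any other WT mouse. When no filter was applied, its log2 fold change was 2.77 ± 0.68 against WT (adjusted p 0.02042 over 33121 genes, edgeR), a value that depends on few reads.

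The enzymes showed smaller differences. Syk had 4.88, 5.75, 5.78, 5.86 and 6.31 normalized CPM in WT mice and 4.53 to 8.51 (median 5.92) in APP/PS1 mice. Only 2 APP/PS1 mice lay above all WT mice and 1 lay below all of them, and the log2 fold change of 0.10 had a 95% interval from -0.23 to 0.43 (adjusted p 0.8137, edgeR). Plcg2 had 3.83, 4.14, 4.60, 5.27 and 6.39 in WT and 6.00 to 9.75 (median 7.34) in APP/PS1 mice, with 5 of the 6 above all WT mice and a log2 fold change of 0.67 ± 0.18 (adjusted p 0.07082, edgeR). Inpp5d had 15.1, 15.4, 16.9, 17.7 and 20.9 in WT and 18.7 to 31.0 (median 23.2) in APP/PS1 mice, with 4 of 6 above all WT mice and a log2 fold change of 0.46 ± 0.13 (adjusted p 0.1122, edgeR). DESeq2 called both, with adjusted p-values of 0.01308 for Plcg2 and 0.03295 for Inpp5d. On the same 17 mice edgeR without the filter on low counts called both as well (0.01725 and 0.01915 over 33121 genes). With the filter, edgeR called both without male 19744 (0.03129 and 0.04477), Plcg2 without WT female 18944 (0.039) and Inpp5d without male 19619 (0.04741).

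**Figure D1:**
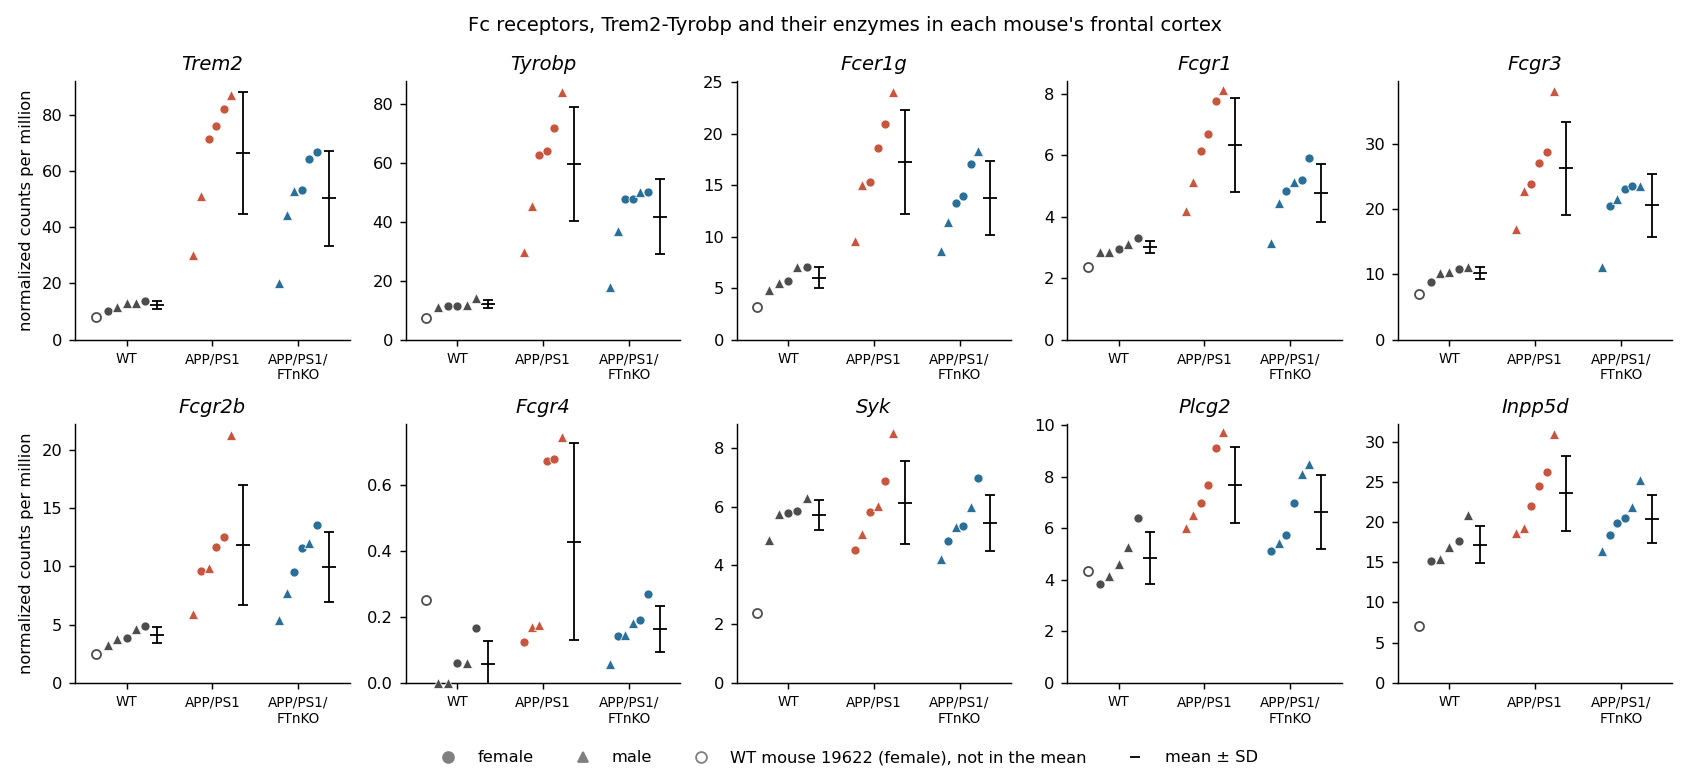
Normalized CPM (vertical axis, from 0, a scale of its own in each panel) of the 10 genes in each mouse by genotype, with circles for females, triangles for males, a mean ± SD beside each group and an open circle for WT mouse 19622, which is not in the mean. Trem2, Tyrobp, Fcer1g, Fcgr1, Fcgr3 and Fcgr2b do not overlap between the 5 WT and the 6 APP/PS1 mice, whereas Syk, Plcg2, Inpp5d and Fcgr4 do.

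In all, 6 of the 9 tested members were called higher in APP/PS1 mice, at an adjusted p below 0.05, against 1.32% of all 17414 tested genes that were called higher. The same 6 did not overlap between the groups, a pattern that 1.71% of the tested genes showed in that direction. The median log2 fold change of the 9 members was 1.34, and that of all tested genes was -0.0023. The 6 calls were made as well on all 18 mice and by limma-voom, and they held with each of the 17 mice left out in turn. When RIN, the RNA integrity number, entered as a covariate, the call of Fcgr2b was lost (log2 fold change 1.06, adjusted p 0.07838, edgeR), and the RIN ranged from 8.5 to 8.8 in WT and from 7.7 to 8.7 in APP/PS1 mice, with the lowest value of 7.7 in male 16975. In bulk tissue more cells of a type and more RNA per cell cannot be told apart.

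The next comparison, APP/PS1/FTnKO against APP/PS1, addresses what neuronal loss of farnesyltransferase does in the presence of amyloid. Tyrobp had 17.8, 36.9, 47.9, 48.0, 50.1 and 50.3 normalized CPM in APP/PS1/FTnKO mice, with a mean of 41.8 ± 12.8 against 59.7 ± 19.3 in APP/PS1 mice (n = 6 each). The log2 fold change was -0.52 ± 0.22, with a 95% interval from -0.97 to -0.06, an unadjusted p of 0.0282 and an adjusted p of 0.3643 (edgeR). Trem2 had 20.0, 44.5, 53.1, 53.2, 64.4 and 66.8, and its log2 fold change was -0.41 ± 0.22 (95% interval -0.88 to 0.05, adjusted p 0.5034, edgeR). In both genes 1 APP/PS1/FTnKO mouse, male 18973, lay below all APP/PS1 mice and the other 5 lay within their range.

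Fcgr1 had 3.14, 4.45, 4.83, 5.15, 5.18 and 5.91 normalized CPM in APP/PS1/FTnKO mice and a log2 fold change of -0.41 ± 0.15 (95% interval -0.72 to -0.09, unadjusted p 0.01384, adjusted p 0.2912, edgeR). For Fcgr3, Fcer1g and Fcgr2b the log2 fold changes were -0.35, -0.33 and -0.26, with adjusted p-values of 0.4575, 0.5593 and 0.7405 (edgeR). Those of Inpp5d, Plcg2 and Syk were -0.21, -0.21 and -0.17, with 0.5689, 0.6745 and 0.7123. Fcgr4 had a mean of 0.163 ± 0.0693 normalized CPM against 0.427 ± 0.299 in APP/PS1 mice, and without a filter its log2 fold change was -1.37 ± 0.54 (adjusted p 0.4689, edgeR).

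None of the 9 tested members was called in this comparison by edgeR, DESeq2 or limma-voom, where edgeR called 0.327% of all tested genes in either direction. An unadjusted p under 0.05 was reached by 2 members (Fcgr1 and Tyrobp) and by 2003 of all 17414 genes. The groups overlapped for each of the 9 members, against 0.97% of the tested genes whose groups did not overlap. All 9 log2 fold changes were negative, with a median of -0.33 beside -0.0016 over all tested genes, but the 9 genes moved together from mouse to mouse, so their shared direction is not 9 separate observations. Other microglial genes lay on the same side: 8 of 8 homeostatic genes (median -0.22), 8 of 8 pan-microglial genes (median -0.29) and 11 of 12 plaque-associated genes (median -0.28) had negative log2 fold changes, none of them called by edgeR. Leaving out APP/PS1 male 16975, which had the highest APP/PS1 value for each of the 10 members, moved the log2 fold change of Tyrobp to -0.33, that of Trem2 to -0.24 and that of Fcgr2b to 0.04. Without this mouse Fcgr3 was at -0.19, Fcer1g at -0.16, Plcg2 at -0.12, Inpp5d at -0.11 and Syk at -0.0494. Leaving out APP/PS1 male 19744 moved Tyrobp, Trem2 and Fcgr2b to -0.64, -0.54 and -0.38. With RIN as a covariate (median 8.2 in APP/PS1 and 8.6 in APP/PS1/FTnKO mice) Tyrobp was at -0.35 (adjusted p 0.3673, edgeR), Trem2 at -0.26 (0.5807) and Fcgr2b at -0.05 (0.9423), and all 9 values remained negative. The unadjusted 95% intervals of Tyrobp and Fcgr1 lay below 0 and those of the other 7 members included 0, and the absence of a call does not show that the groups are alike.

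**Figure D2:**
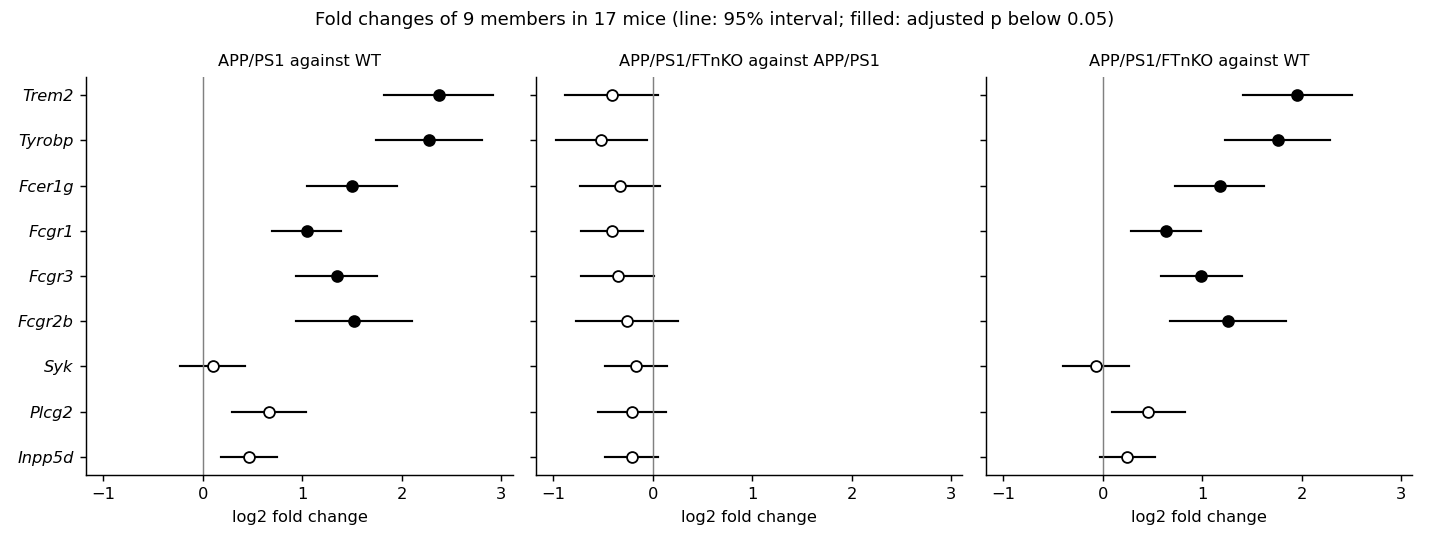
Log2 fold change (horizontal axis) with its 95% interval for the 9 tested genes in the 3 comparisons, from edgeR on 17 mice, with filled points where the adjusted p was below 0.05. Filled points appear for the 6 receptors and adaptors against WT in both transgenic genotypes, and the APP/PS1/FTnKO against APP/PS1 panel holds only open points, from -0.52 for Tyrobp to -0.17 for Syk.

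Against WT mice, the same 6 members were called higher in APP/PS1/FTnKO mice, against 2.22% of all tested genes called higher. Their log2 fold changes were 1.96 ± 0.26 for Trem2 (adjusted p 0.0008462), 1.76 ± 0.25 for Tyrobp (0.001454), 1.26 ± 0.28 for Fcgr2b (0.01905), 1.17 ± 0.21 for Fcer1g (0.006674), 0.99 ± 0.19 for Fcgr3 (0.01045) and 0.63 ± 0.17 for Fcgr1 (0.04092), all in edgeR. Plcg2 (0.46, adjusted p 0.1385), Inpp5d (0.25, 0.2847) and Syk (-0.07, 0.8338) were not called. Trem2, Tyrobp, Fcer1g and Fcgr2b did not overlap with WT mice, which held for 2.75% of the tested genes, whereas in Fcgr3 and Fcgr1 male 18973 lay within the WT range. All 5 excitatory neuron markers were lower in APP/PS1/FTnKO than in WT mice (median log2 fold change -0.25), and Slc17a7 was called lower by edgeR. Whether a smaller neuronal share contributes to the higher values of the members was not tested. This comparison and APP/PS1 against WT share their WT mice, so their values stand side by side and do not support each other.

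The call of Fcgr1 against WT was near the threshold (adjusted p 0.04092, edgeR). Its log2 fold change stayed at 0.58 to 0.73 with each mouse left out in turn. The call was lost when any 1 of 10 mice was left out (APP/PS1/FTnKO 16974, 19720, 18943 and 19394, WT 19718, 19721, 18944 and 19053, and APP/PS1 19553 and 19554, which enter only through the shared fit), with adjusted p-values from 0.0521 to 0.1181 in edgeR. That of Fcgr2b was lost without APP/PS1/FTnKO 16974 (0.05517), WT 19721 (0.05064) or WT 19053 (0.0638). With RIN as a covariate, Fcgr1 had a log2 fold change of 0.51 and an adjusted p of 0.08634.

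Levels were compared between genes per kilobase of transcript (RPKM, normalized CPM divided by length). With the length of all annotated exons, Tyrobp was the highest member in each genotype, at 17.9 ± 1.98 RPKM in WT (n = 5), 89.5 ± 29.0 in APP/PS1 (n = 6) and 62.7 ± 19.2 in APP/PS1/FTnKO mice (n = 6), and it did not overlap with the next gene in any of them. Fcer1g (6.89 ± 1.13 RPKM) and Fcgr3 (5.92 ± 0.531) followed in WT mice and overlapped with each other, then Trem2 (2.48 ± 0.312) and Inpp5d (2.26 ± 0.305), which overlapped, Fcgr1 (1.16 ± 0.0775) and Plcg2 (1.13 ± 0.237), which overlapped, Fcgr2b (0.708 ± 0.115) and Syk (0.610 ± 0.0554), which overlapped, and Fcgr4 (0.0457 ± 0.0542). In APP/PS1 mice Trem2 reached 13.4 ± 4.38 RPKM, overlapping with Fcgr3 (15.1 ± 4.09) and no longer with Inpp5d (3.10 ± 0.612). The place of Trem2 depends on the length used: its annotated exons span 4946 bases and its principal transcript 1056, and with the latter it was second to Tyrobp in each genotype (11.6 ± 1.46 RPKM in WT, 63.0 ± 20.5 in APP/PS1), overlapping with Tyrobp in both transgenic genotypes. Tyrobp remained the highest and Fcgr4 the lowest with either length.

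To set the members against a microglial reference, counts were scaled to the summed counts of 8 homeostatic microglial genes (P2ry12, P2ry13, Tmem119, Cx3cr1, Gpr34, Selplg, Olfml3 and Sall1) in place of all genes. Whether the sum tracks the number of microglia was not tested. The genes in the sum moved unequally: Sall1 had a mean of 38.8 normalized CPM in WT and 38.0 in APP/PS1 mice, and Olfml3 17.9 and 34.7. This sum was 210 to 267 normalized CPM in WT mice, 255 to 383 in the APP/PS1 group and 195 to 313 in the APP/PS1/FTnKO group, and in APP/PS1 its lowest and highest mice (19744 and 16975) were those with the lowest and highest values of Trem2. In the APP/PS1/FTnKO group mouse 18973 was lowest in both, but mouse 19720, with the highest sum (313), had the second lowest Trem2 (44.5 normalized CPM). Per 100 homeostatic counts, Trem2 had 4.77 to 5.89 counts in WT mice, 11.9 to 25.4 in the APP/PS1 group and 10.3 to 25.8 in the APP/PS1/FTnKO group. Tyrobp had 4.33 to 6.12, 11.7 to 22.8 and 9.15 to 19.5. Syk had 2.09 to 2.76, 1.61 to 2.22 and 1.70 to 2.70, so that it was not higher in the transgenic mice on this scale.

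On this scale the same 6 members were called higher in the APP/PS1 group than in WT, beside 1.11% of all tested genes. The log2 fold changes were 1.93 ± 0.19 for Trem2, 1.83 ± 0.18 for Tyrobp, 1.06 ± 0.16 for Fcer1g, 1.06 ± 0.20 for Fcgr2b, 0.91 ± 0.14 for Fcgr3 and 0.62 ± 0.15 for Fcgr1, with adjusted p-values from 7.477e-07 to 0.02819 (edgeR). Plcg2 was at 0.26 (adjusted p 0.1332), Inpp5d at 0.04 (0.8221) and Syk at -0.32 (0.0803). The scaling moved the median log2 fold change of all genes to -0.39, so these values are relative to the 8 reference genes, of which 2 (Olfml3 and Cx3cr1) were themselves called higher in APP/PS1 mice by the usual scaling. The call of Fcgr1 was lost without APP/PS1 16975 (adjusted p 0.07096), 19554 (0.05348) or 19723 (0.07067) and without WT 19718 (0.05143) or 19053 (0.09915). With 8 pan-microglial genes as the reference (among them Csf1r, Aif1, Itgam, Ptprc, Laptm5, Irf8 and Spi1, and 6 of the 8 were called higher by the usual scaling), Trem2, Tyrobp, Fcer1g, Fcgr2b and Fcgr3 were still called higher, Fcgr1 was not (0.15, adjusted p 0.369), and Syk (-0.79, 0.000178) and Inpp5d (-0.43, 0.007524) were called lower. On that scale 0.551% of all tested genes were called higher and 89.4% lower, with a median log2 fold change of -0.85, so both values lay above the median of all genes and the lower calls are not particular to Syk and Inpp5d. In APP/PS1/FTnKO against APP/PS1 no member was called on the homeostatic scale, where 0.115% of all genes were called, and the log2 fold changes ran from -0.30 for Tyrobp to 0.06 for Syk.

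**Figure D3:**
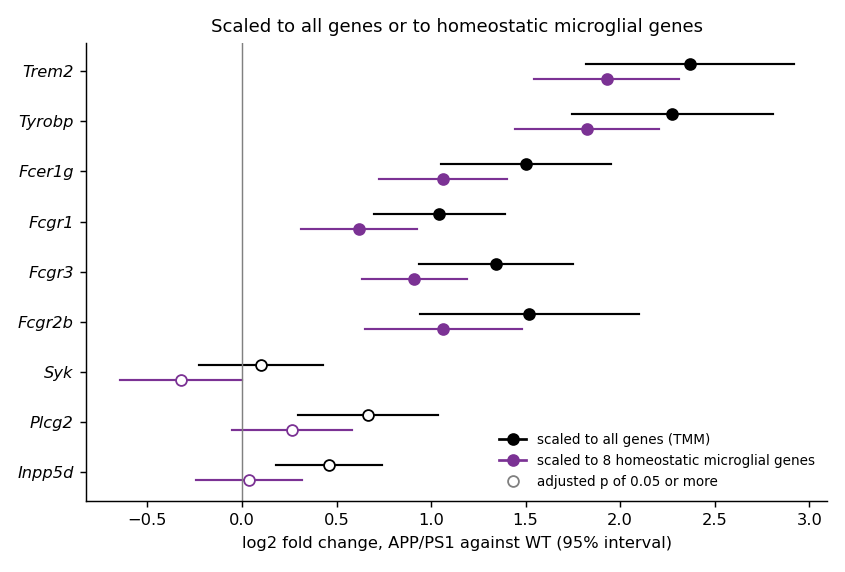
Log2 fold change of APP/PS1 against WT (horizontal axis) with 95% intervals for the 9 tested genes, scaled to all genes (black) or to 8 homeostatic microglial genes (purple), with filled points where the adjusted p was below 0.05. All purple points lie to the left of the black ones, the 6 receptors and adaptors stay above 0 at 0.62 to 1.93, and Syk moves to -0.32.

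Ratios of counts within each library need no scaling between mice. Trem2 had 1.02 reads per Tyrobp read in WT (geometric mean, n = 5), 1.11 in APP/PS1 (n = 6) and 1.19 in APP/PS1/FTnKO mice (n = 6), and the exact permutation tests (two-sided, on log2 ratios with 0.5 added to each count) gave p = 0.3593 for APP/PS1 against WT and 0.2013 for APP/PS1/FTnKO against APP/PS1. The inhibitory Fcgr2b had 0.397, 0.432 and 0.479 reads per read of the activating Fcgr3, with exact permutation p-values of 0.4545 and 0.2771. For Fcgr4 to Fcgr3 the ratio was 0.00617, 0.0143 and 0.00889, with exact permutation p-values of 0.1212 and 0.1017. Over these 6 tests the adjusted p-values were 0.3636 to 0.4545, so the balance of inhibitory and activating receptor and that of Trem2 and its adaptor were not shown to differ.

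After these values had been seen, the 3 enzymes were set against Tyrobp in the same way. Syk had 0.479 reads per Tyrobp read in WT and 0.107 in APP/PS1 mice, Plcg2 0.402 and 0.134, and Inpp5d 1.43 and 0.411. The log2 ratios differed by -2.17, -1.58 and -1.80, the groups did not overlap in any of the 3, and the exact permutation p was 0.004329 for each, the smallest that 6 against 5 mice allow (adjusted 0.008658 over 6 tests). The ratios in APP/PS1/FTnKO mice were 0.137, 0.166 and 0.511 and did not differ from those in APP/PS1 mice beyond the spread (adjusted p 0.265 to 0.29, exact permutation tests). Since the choice followed from fold changes already known, these ratios describe the unequal change of adaptor and enzymes and are not a further test of it.

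**Figure D4:**
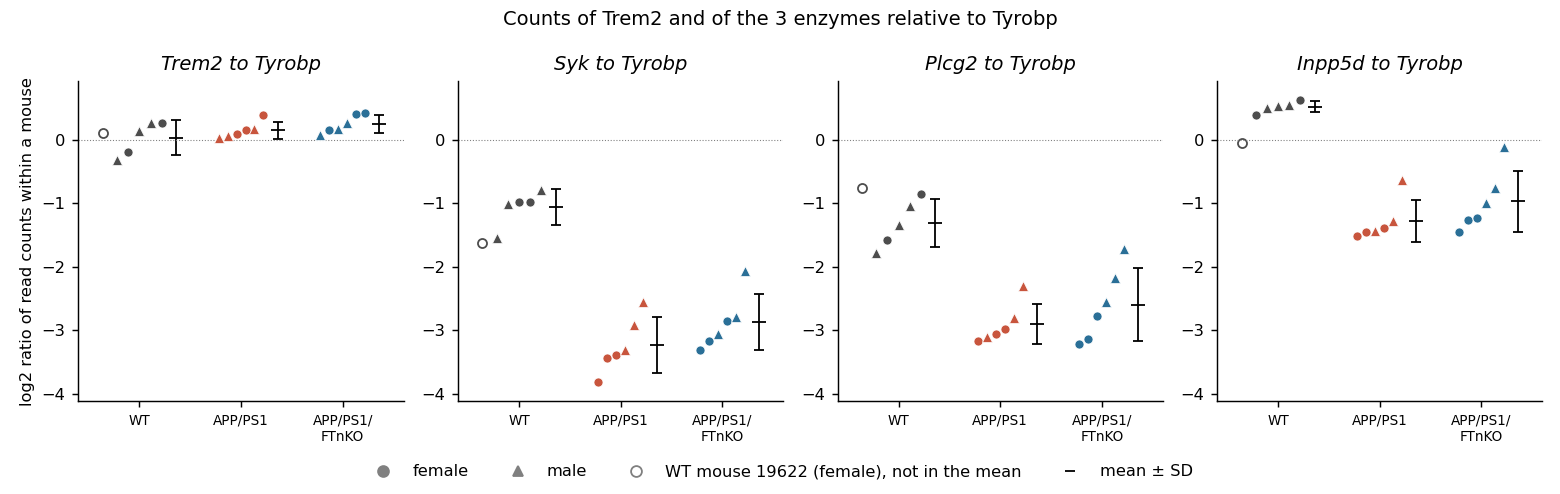
Log2 ratio of read counts to Tyrobp within each mouse (vertical axis, 1 scale for all panels) for Trem2, Syk, Plcg2 and Inpp5d, by genotype, with circles for females, triangles for males, mean ± SD and WT mouse 19622 as an open circle. Trem2 stays near 0 in each genotype, while the 3 enzymes lie lower in all 6 APP/PS1 mice than in all 5 WT mice.

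In APP/PS1 mice the 3 females had 71.5, 76.2 and 82.4 normalized CPM of Trem2, and the 3 males had 30.3, 51.3 and 87.4. The males held both the lowest and the highest value, as for Tyrobp (females 62.8, 64.0 and 71.9, males 29.7, 45.5 and 84.1). A term for the difference between the sexes in the effect of genotype was not called for any of the 9 members, either for APP/PS1 against WT (unadjusted p 0.3257 to 0.9521) or for APP/PS1/FTnKO against APP/PS1 (0.237 to 0.924), with adjusted p-values of 0.9998 and 1 in edgeR. Of all tested genes 0.0% were called in either of these, although 705 and 578 genes had an unadjusted p under 0.05, and DESeq2 called 2 and 1 of all genes and none of the members. With 2 or 3 mice of each sex in a genotype, only large differences between the sexes could have been seen.

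The members varied together from mouse to mouse within a genotype. After removal of the genotype and sex means, Pearson's r between log2 CPM values over the 17 mice was 0.76 to 0.944 among the 6 receptors and adaptors (15 pairs, median 0.921), 0.508 to 0.819 between these and the enzymes (18 pairs, median 0.626) and 0.356 to 0.479 among the 3 enzymes. The values being correlated come from the same libraries and so share their depth and cell makeup, and they are given as a description. With the receptors and adaptors, r was 0.607 to 0.819 for Inpp5d, 0.508 to 0.677 for Plcg2 and 0.575 to 0.671 for Syk, and Trem2 had a higher r with Syk (0.671) than with Inpp5d (0.607). These differences were not tested.

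**Figure D5:**
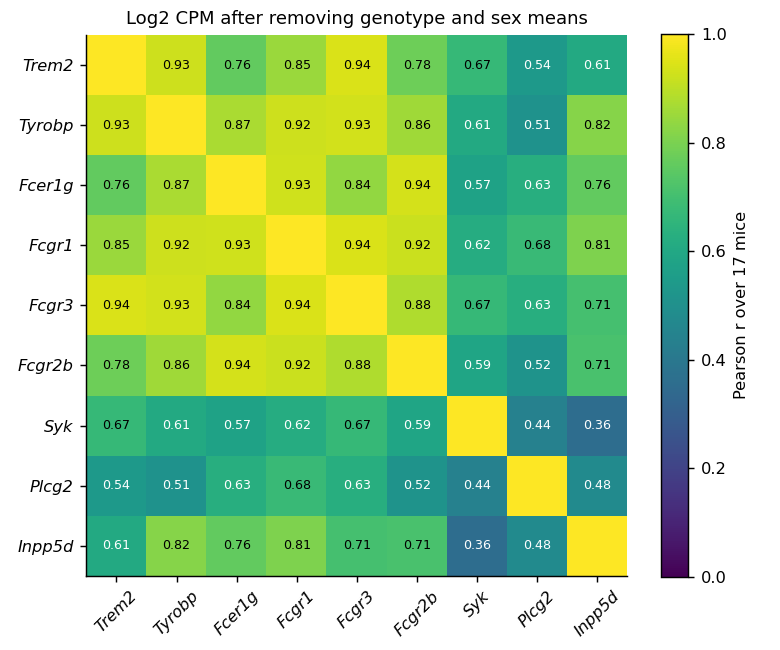
Pearson's r (colour and number) between the 9 tested genes over 17 mice, from log2 CPM after removal of genotype and sex means. The block of Trem2, Tyrobp, Fcer1g, Fcgr1, Fcgr3 and Fcgr2b holds values from 0.76 to 0.94, and the block of Syk, Plcg2 and Inpp5d values from 0.36 to 0.48.

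Among all other tested genes, those most like Trem2 by this measure were the lysosomal membrane gene Laptm5 (r = 0.969) and the lysosomal proteases Ctsd (0.968) and Ctsc (0.959). Tyrobp was most like Ctsz (0.96), the surface glycoprotein gene Cd52 and the lysosomal enzyme gene Gusb (0.954 each). Fcgr3 was most like Laptm5 (0.971), Hexa (0.952) and Abi3 (0.95), Fcgr1 like Ctsa (0.963), Unc93b1 (0.961) and the complement gene C1qa (0.958), Fcgr2b like Ctsa (0.942), Cd68 (0.93) and Greb1 (0.918), and Fcer1g like Gstt3 (0.951), Bcl3 (0.946) and Ctsa (0.945). Ctsa, a lysosomal carboxypeptidase, was thus in the first 3 of 3 members. For Inpp5d they were Gcsh (0.922), the inhibitory receptor gene Lilrb4a (0.921) and Aox1 (0.918), for Plcg2 Cyp4v3 (0.892), Zfp688 (0.877) and Gng5 (0.874), and for Syk Pnrc2 (0.864), Sphk1 (0.835) and Farp1 (0.825). These are descriptions over 17 mice, chosen as the highest of all tested genes.

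Few other Fc receptors had enough reads to be tested. Of 11 listed, 4 were tested and 1 was called higher in the APP/PS1 group: Fcrls, an Fc receptor-like gene of microglia, with 19.4 ± 3.61 normalized CPM in WT (n = 5), 57.7 ± 14.1 in APP/PS1 (n = 6) and 42.7 ± 12.9 in APP/PS1/FTnKO mice (n = 6), a log2 fold change of 1.497 ± 0.18 (adjusted p 0.0002547, edgeR). Fcgrt, the neonatal Fc receptor, had a log2 fold change of 0.12 (adjusted p 0.7596), and Fcer1a, Fcer2a, Fcrla, Fcmr, Fcamr and Pigr had at most 3 reads in each mouse. Of 10 immunoglobulin genes, 4 were tested and Ighm alone was called, with a log2 fold change of 0.48 ± 0.12 against WT (adjusted p 0.04296, edgeR). The median log2 fold change of the 4 tested genes was -0.52. Ighm encodes the heavy chain of IgM and not of immunoglobulin G, to which the Fc gamma receptors bind. The immunoglobulin G heavy chain genes Ighg1, Ighg2b, Ighg2c and Ighg3 had group means of at most 0.06743 normalized CPM.

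Of 18 other receptors that signal through Tyrobp, Fcer1g or Syk, 4 were tested and 3 were called higher in APP/PS1 mice: the beta-glucan receptor Clec7a (5.06 ± 0.49, adjusted p 2.466e-05), Siglech (0.70 ± 0.13, 0.007902) and Clec5a (1.05 ± 0.24, 0.03512). Trem1, the relative of Trem2 on neutrophils and monocytes, was among 10 of them with at most 3 reads in each mouse. Of 14 inhibitory receptors tested, 3 were called higher, namely Lilrb4a (3.75 ± 0.57, adjusted p 0.001288), Lair1 (0.72 ± 0.15, 0.01392) and Cd22 (3.36 ± 0.82, 0.04734), of which Lilrb4a and Cd22 had a mean under 1 normalized CPM in WT mice. Cd33 had a log2 fold change of 0.42 (adjusted p 0.2068).

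Below the receptors, 3 of 11 Src and Tec family kinases were called higher in APP/PS1 mice, among them Tec (0.95 ± 0.16, adjusted p 0.003363) and Btk (1.002 ± 0.24, 0.04296), kinases known from haematopoietic cells, whereas Lyn (0.36, 0.4535) and Fyn, which neurons express too (0.03, 0.8431), were not. Among 21 scaffolds and exchange factors 2 were called higher, Vav1 (0.83 ± 0.19, 0.03223) and Lat2 (0.86 ± 0.20, 0.03447), and among 16 phosphoinositide and phosphatase enzymes 2, the phosphatases Ptprc (1.44 ± 0.23, 0.001797) and Ptpn6 (0.96 ± 0.21, 0.02407), the latter being SHP-1, which binds inhibitory receptors. None of 13 genes of calcium, protein kinase C and CARD9 output was called by edgeR (Card9 0.64, adjusted p 0.1679). Of 11 tested genes for the shedding, partners and ligands of Trem2, the ligands Lgals3 (2.04 ± 0.42, 0.01684) and Clu (0.44 ± 0.10, 0.04309) were called higher, while Apoe (0.61 ± 0.15, 0.05597) and the sheddase Adam10 (-0.04, 0.8188) were not. The median log2 fold changes of these lists were 0.21, 0.06, 0.02, 0.07 and 0.19 in this order, beside -0.0023 over all tested genes and 1.34 over the members.

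In APP/PS1/FTnKO against APP/PS1 no gene of any of these lists was called by edgeR. Against WT mice, APP/PS1/FTnKO mice had calls for Fcrls (1.06 ± 0.18, adjusted p 0.00517), Ighm (0.59 ± 0.11, 0.009576), Clec7a (4.74 ± 0.50, 5.914e-05), Lilrb4a (3.42 ± 0.57, 0.003932), Cd22 (3.31 ± 0.82, 0.03288), Fgr (2.03 ± 0.50, 0.03149), Dok1 (1.04 ± 0.26, 0.0339), Lat2 (0.74 ± 0.20, 0.044), Ptprc (1.15 ± 0.23, 0.01168), Ptpn6 (0.89 ± 0.21, 0.02605), Lgals3 (1.84 ± 0.42, 0.02269) and Clu (0.40 ± 0.10, 0.03975).

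Markers of other cells that express Fc receptors were measured beside these values. Of 12 markers of plaque-associated microglia, 11 were called higher in the APP/PS1 group than in WT (median log2 fold change 2.13), and 6 of 8 pan-microglial genes were (median 1.005), against 2 of 8 homeostatic genes (median 0.38). None of 6 perivascular macrophage markers (Mrc1, Cd163, Lyve1, Cbr2, F13a1 and Pf4) was called, and their sum was 6.87 to 9.23 normalized CPM in WT mice, 6.35 to 10.8 in the APP/PS1 group and 4.69 to 10.7 in the APP/PS1/FTnKO group. Neutrophil markers summed to at most 2.58 normalized CPM, with Ly6g at 0 in the 17 mice and Retnlg at no more than 3 reads, and T and NK cell markers to at most 1.34, with Cd3d, Cd3e and Ncr1 at no more than 3 reads. B and plasma cell markers summed to at most 2.94 (Ms4a1 at no more than 3 reads), and mast cell markers to 24.2 to 41.2, nearly all of it from Kit (24.2 to 41.1), which other brain cells also express, with Cpa3, Mcpt4, Ms4a2 and Fcer1a at no more than 3 reads. Monocyte markers summed to 0.641 to 5.18, and blood markers (haemoglobin genes) to 47.5 to 991 in WT mice, 2.62 to 160.2 in the APP/PS1 group and 35.5 to 435 in the APP/PS1/FTnKO group. The part of a change in microglial number in the higher levels of the members was not tested.

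WT mouse 19622 had lower values than the other 5 WT mice for Trem2 (7.91 normalized CPM), Tyrobp (7.35), Fcer1g (3.17), Fcgr1 (2.37), Fcgr2b (2.47), Fcgr3 (6.999), Syk (2.37) and Inpp5d (7.10), but not for Plcg2 (4.33) or Fcgr4 (0.252). Per 100 homeostatic microglial counts it had 6.84 of Trem2, 6.36 of Tyrobp and 3.75 of Plcg2, each above the highest of the other WT mice (5.89, 6.12 and 2.40), and 2.05 of Syk, just under their lowest (2.09).

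In the window of 250 bases before the RefSeq start site of each member (GRCm38.p6, 11 windows for 9 genes, Tyrobp having no entry in the set of windows used), the octamer GAGGAAGT, a core of the sites of the myeloid factor PU.1, was searched on both strands. It was present in the windows of Inpp5d (20 bases before the start) and Fcgr4 (24 bases before, on the reverse strand) and in 2.44% of 32851 windows of the same length. Spi1, which encodes PU.1, had a log2 fold change of 0.94 ± 0.23 in APP/PS1 against WT mice (adjusted p 0.04842, edgeR).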

How the data were processed

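Frontal cortex mRNA of 18 mice was sequenced from stranded libraries. The authors deposited raw read counts per gene from featureCounts, made from HISAT2 2.1.0 alignments (GRCm38) of reads that Trimmomatic 0.33 had trimmed, whose strand, multi-mapping and annotation settings were not given in the sources used here. Counts were tested with the quasi-likelihood test of edgeR 4.0.16 (TMM scaling, filterByExpr with a minimum count of 10, terms for sex and genotype) on 17 mice, leaving out WT mouse 19622, with Benjamini-Hochberg adjustment over all 17414 genes tested and a threshold of 0.05. Each replicate is 1 mouse, and although the groups were described as littermates, the sources used here do not say which mice shared a litter. Normalized CPM are counts relative to the TMM-scaled library size. SE is the log2 fold change divided by the square root of F. Ratios used 0.5 added to each count, and floors (3 counts) cover counting error only. Alternatives were all 18 mice, DESeq2 1.42.0, limma-voom (limma 3.58.1), RLE scaling, no filter, RIN as a covariate, no sex term, only the genotypes compared, another microglial reference and leaving out each mouse. The edgeR, DESeq2 and limma-voom fits were tested on simulated data. The members and gene lists were chosen with earlier results of these data known. By rule, the text names all members, called genes of each list (at most 5 by p per list and direction), the 3 genes most like each member, and App, Prnp, Fntb and Churc1 as checks of the labels. Fcgrt, Cd33, Lyn, Fyn, Card9, Apoe and Adam10 were added after their values were seen. A few genes of these lists are not reported here.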

Additional observations from a re-analysis of the deposited data

Results flagged for a closer look

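Of 64 groups of values examined, 5 held a mouse whose distance from the nearest other mouse was large for the range of its group, and chance gives such a mouse in about 1 of 20 groups. Fcgr3 in APP/PS1/FTnKO male 18973 was 11.06 normalized CPM against 20.55 to 23.63 in the other 5 mice, and this mouse also had the lowest homeostatic microglial sum of its genotype (194.5). Tyrobp in WT male 19101 was 14.26 against 10.91 to 11.64 in the other 4. Syk in WT mouse 19622 was 2.366 against 4.876 to 6.306 in the other 5 WT mice. The log2 ratio of Inpp5d to Tyrobp was -0.6291 in APP/PS1 male 19744, the mouse with the lowest Tyrobp of its genotype, against -1.515 to -1.284 in the other 5. The same ratio was -0.0501 in WT mouse 19622 against 0.3918 to 0.6252. Causes were not tested.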

How the results depend on the processing

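No paired analysis was possible because the groups share no replicate numbers. The count of called members stayed within 1.5 times its value under every alternative, but the members called were not always the same. In APP/PS1 against WT, Plcg2 and Inpp5d were also called by DESeq2. Without a filter, edgeR called Plcg2 (adjusted p 0.01725), Inpp5d (0.01915) and Fcgr4 (0.02042) as well. With the pan-microglial reference Fcgr1 was not called, while Syk and Inpp5d were called lower. The count over all genes moved more: 468, 253 and 1321 with DESeq2 against 261, 57 and 674 for APP/PS1 against WT, APP/PS1/FTnKO against APP/PS1 and APP/PS1/FTnKO against WT, 84, 261 and 388 with RIN as a covariate, and 207, 2 and 261 on all 18 mice. Without a filter the first and second were 452 and 104, and with only the 2 genotypes compared the second was 5. Scaled to pan-microglial instead of homeostatic genes, APP/PS1 against WT gave 15662 against 8571 genes, and on all 18 mice APP/PS1/FTnKO against APP/PS1 gave 0 against 20. Leaving out 1 mouse at a time, the 3 counts over all genes, on which the background shares rest, ran from 124 (WT 19053) to 465 (APP/PS1 19744), from 10 (APP/PS1 19554) to 81 (APP/PS1 16975) and from 206 (WT 19053) to 987 (APP/PS1/FTnKO 18973), and on the homeostatic scale APP/PS1 against WT ran from 111 (WT 19053) to 11150 (APP/PS1/FTnKO 18973) and APP/PS1/FTnKO against APP/PS1 from 5 to 20. Some directions changed. Syk in APP/PS1/FTnKO against WT was 0.0911 on all 18 mice. With the pan-microglial reference, which moved the median of all genes to -0.85 and called 15566 lower, Plcg2 was -0.22 and Inpp5d -0.43 in APP/PS1 against WT and Fcgr2b 0.0699 in APP/PS1/FTnKO against APP/PS1. With single mice left out, Syk ran from -0.0301 to 0.17 in APP/PS1 and from -0.15 to 0.0049 in APP/PS1/FTnKO against WT, and Fcgr2b from -0.38 to 0.0448 between the transgenic genotypes. On the homeostatic scale Inpp5d ran from -0.051 to 0.12 against WT, and between the transgenic genotypes Fcgr2b ran from -0.10 to 0.18, Syk from -0.0465 to 0.12, Plcg2 from -0.042 to 0.0843 and Inpp5d from -0.0385 to 0.0651. The log2 ratio of Fcgr4 to Fcgr3 differed by 0.849 to 1.676 in APP/PS1 against WT (exact permutation p 0.04762 without WT 19053) and by -0.9169 to -0.5177 in APP/PS1/FTnKO against APP/PS1 (0.0303 without APP/PS1 19553), and that of Inpp5d to Tyrobp by 0.448 without APP/PS1 19744 (exact permutation p 0.02597). The cause was not tested. Depth limits Fcgr4 most.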
